A study of Mus musculus with 12 samples.

Results

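The genes described here are receptors, co-receptors and adaptors through which cells sense bacterial lipopolysaccharide (LPS) and other microbial products, as measured by RNA sequencing of mouse liver. They were chosen by name, with earlier results of these data known. Of the 9 listed genes, 8 were found by symbol among the 11289 genes of the expression table: Lbp, Cd14, Ly96, Tlr2, Tlr3, Tlr13, Myd88 and Ticam1. The ninth, Tlr4, is not analysed here. The livers came from 12 C57BL/6J mice, 4 in each of 3 groups: a control group (Ctrl in the labels), a group given concanavalin A (Con A), a T cell-activating lectin from jack beans, followed by PBS (labelled Con A), and a group given Con A followed by human mesenchymal stem cells isolated from umbilical cord Wharton's jelly (hWJ-MSCs, labelled Con A + MSCs). Con A was given once at 15 mg/kg into the tail vein, PBS or cells followed intravenously after 30 min in a volume of 200 μL, and livers were taken 24 h later. The labels give an age of 8 to 10 weeks and a dose of 2000000 cells, while the study's methods give younger, male animals and fewer cells. The labels describe no injection of the control mice, so an effect of injection and an effect of Con A cannot be told apart, and the cells were of human origin in mice with an intact immune system.

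Toll-like receptors (TLRs) recognise conserved microbial molecules and some molecules released by damaged cells. LPS is taken up by LBP, a plasma protein made by hepatocytes, passed to CD14, and presented to the receptor TLR4, which binds LPS only together with its partner MD-2, the product of Ly96. Most TLRs signal through the adaptor MyD88 towards NF-κB, TLR3 signals through the adaptor TRIF, the product of Ticam1, towards interferon, and TLR4 uses both. In the liver, which receives gut-derived products with the portal blood, Kupffer cells, sinusoidal endothelial cells and hepatocytes all take part in LPS sensing and removal.

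The values are scores, whole numbers that had already been normalized between mice and are not read counts. Sorted from low to high, the scores were the same in all 12 mice at 82.1% of the ranks, and their totals lay between 17649654 and 17657159, so the sequencing depth is unknown. Scores are not divided by gene length and are compared here only between mice for the same gene. Each gene of the table reached 64 in at least 2 mice, which is taken as the entry limit of the table. Of the 8 genes, Cd14, Ly96 and Tlr13 reached this value only in mice given Con A, so these 3 could enter the table only by being higher there, and counts over the 8 genes are given as a description. Groups were compared with limma on log2(score + 1), a scale that understates changes of low scores, and p-values were adjusted over all genes by the Benjamini-Hochberg method. Genes count as called where this adjusted p was below 0.05 and the fold change above 1.5. Mouse 4 of the Con A + PBS group stood somewhat apart, with a mean correlation of 0.943 with the other mice of its group, against 0.960 to 0.972 for the remaining 11 mice. The hepatocyte markers were all in the table, with Alb at the largest score of the table, 341028, in all 12 mice. The p-values measure the spread between these mice.

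After Con A, the largest change among the 8 genes was in the LPS co-receptor Cd14, whose fitted level was 82.9 times that of the control group. Tlr2, the receptor for bacterial lipoproteins, followed at 7.77 times. Tlr3, Myd88, Ly96, Lbp and Tlr13 rose by 1.64 to 2.54 times, and Ticam1 was 1.35 times the control level, under the fold threshold. By limma, 7 of the 8 genes were called up after Con A, where 19.5% of all genes were called up. In 7 of the 8 genes, all but Lbp, each Con A + PBS mouse lay above each control mouse, as did 27.1% of all genes. The median log2 fold change of the 8 genes was 1.06, against 0.05 over all genes.

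With hWJ-MSCs, Cd14 and Tlr2 were lower than after Con A + PBS, at 0.397 and 0.355 times the level, and these were the genes called down, 2 of the 8, where 4.38% of all genes were called down. In 3 of the 8 genes, Cd14, Tlr2 and Myd88, each Con A + hWJ-MSCs mouse lay below each Con A + PBS mouse, as did 11.6% of all genes. The median log2 fold change of the 8 genes was -0.38, against 0.00 over all genes. Both calls were lost when Con A + PBS mouse 1 or Con A + hWJ-MSCs mouse 3 was left out (limma adjusted p up to 0.0696 for both genes), and that of Tlr2 also without Con A + hWJ-MSCs mouse 2. The log2 fold changes in the 12 fits without 1 mouse were -1.61 to -1.34 for Tlr2 and -1.53 to -1.04 for Cd14. The whole table lost its calls in the same fits: 495 genes were called down with all mice, 2 without Con A + PBS mouse 1, 10 without Con A + hWJ-MSCs mouse 2, 3 without Con A + hWJ-MSCs mouse 3 and 149 without Con A + PBS mouse 4, where Cd14 and Tlr2 kept their calls. Compared with the control group, the Con A + hWJ-MSCs group was still higher in 5 of the 8 genes by limma (Lbp, Cd14, Tlr2, Tlr3 and Myd88), where 13.6% of all genes were called up. In the same 5 genes each mouse of that group lay above each control mouse, as did 20.6% of all genes. The median here was 0.87, against 0.04 over all genes. The 3 comparisons share groups of mice and are not independent of each other.

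**Figure D1:**
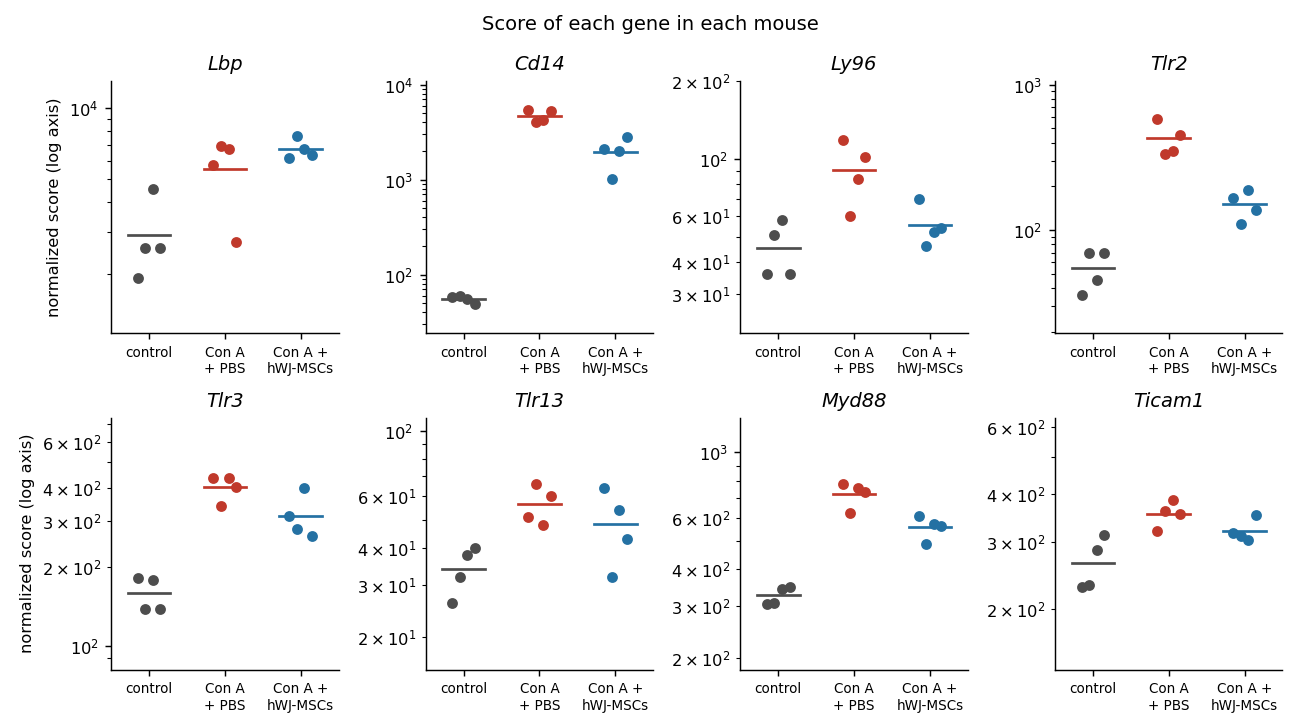
Normalized score (log axis) of the 8 genes in each of the 12 mice, 1 point per mouse, with the group mean as a line. Each gene has its own axis. Cd14 lay between 49 and 60 in control mice and between 1009 and 5380 in all mice given Con A. Over the 12 mice Tlr13 lay between 26 and 66 and Ticam1 between 228 and 386.

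**Figure D2:**
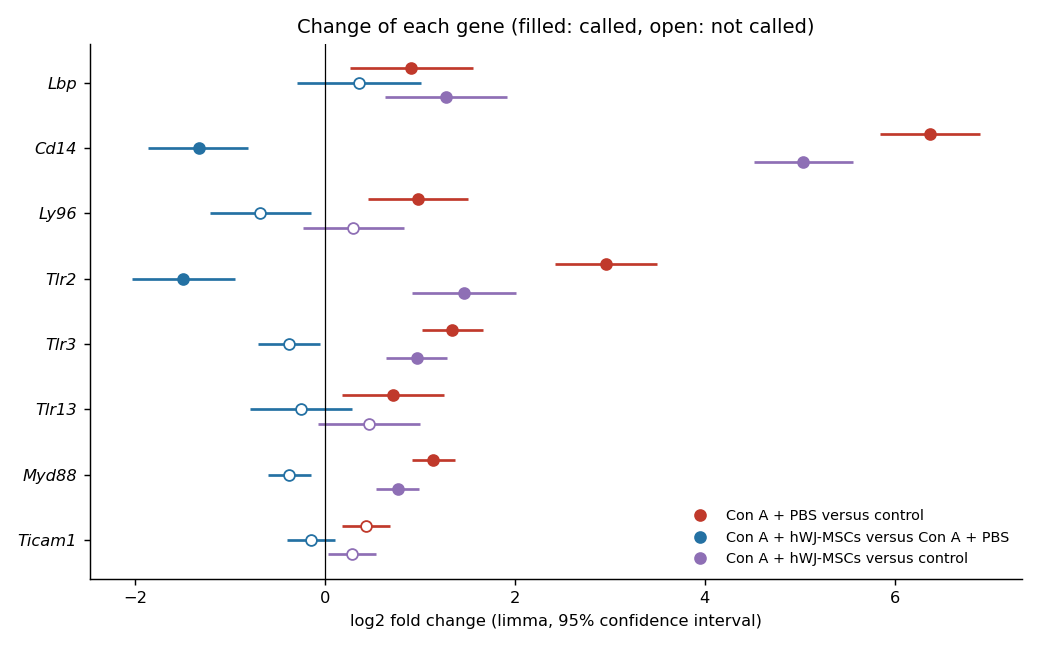
Log2 fold change of each gene in the 3 comparisons with its 95% confidence interval from limma, filled where the gene was called and open where it was not. Cd14 and Tlr2 lay farthest to the right after Con A, at 6.37 and 2.96, and they alone have filled points to the left of 0 with hWJ-MSCs.

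Among the proteins that deliver LPS, Cd14 encodes a membrane-anchored and soluble co-receptor that is abundant on monocytes and macrophages (transcript ENSMUST00000061829; mm10, chromosome 18 from 36725074 to 36726736, minus strand). Its scores were 58, 60, 55 and 49 in control mice 1 to 4, 5380, 4032, 4184 and 5242 in Con A + PBS mice, and 2075, 1009, 2021 and 2784 in Con A + hWJ-MSCs mice. The 3 groups did not overlap, and within the Con A + hWJ-MSCs group mouse 2 was the lowest. The group means were 55.5 ± 4.80, 4709.5 ± 699.6 and 1972 ± 730.2 (SD, n = 4 mice each). The log2 fold change was 6.37 after Con A (SE 0.24, 95% confidence interval 5.85 to 6.90, limma adjusted p = 4.9e-09). It was -1.33 with hWJ-MSCs (SE 0.24, interval -1.86 to -0.81, adjusted p = 0.0188), and 5.04 between the Con A + hWJ-MSCs and control groups (SE 0.24, interval 4.52 to 5.56, adjusted p = 6.3e-08). The control scores of Cd14 were similar to each other, with an SD of 8.64% of the mean, while the SD was 37.0% of the mean in the Con A + hWJ-MSCs group.

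Lbp encodes the acute phase protein that binds LPS in plasma. The table lists it by transcript ENSMUST00000109491 (chromosome 2 from 158306493 to 158310506, plus strand), which in GENCODE M21 has 3 exons and is 1 of 5 transcripts of a gene that extends to 158332852. Whether the score belongs to this transcript or to the whole gene is not given in the sources used here. Its scores were 1920, 2576, 4557 and 2576 in control mice, 5738, 6938, 6748 and 2727 in Con A + PBS mice, and 6154, 7608, 6748 and 6316 in Con A + hWJ-MSCs mice. Con A + PBS mouse 4, with 2727, lay within the range of the control mice, and the remaining 3 mice of its group lay above all control mice. The log2 fold change after Con A was 0.91 (SE 0.30, interval 0.27 to 1.56, limma adjusted p = 0.0199), and it was 1.22 without mouse 4. Leaving out control mouse 1, or Con A + PBS mouse 2 or 3, ended the call (adjusted p up to 0.0634), and leaving out any 1 of the other 9 mice did not. Between the Con A groups the fitted difference was 0.36 (interval -0.29 to 1.01, adjusted p = 0.409), and it was 0.05 without Con A + PBS mouse 4. The Con A + hWJ-MSCs mice were the most uniform, with an SD of 9.71% of their mean against 35.1% in the Con A + PBS group, and they lay above the control mice by 1.28 (SE 0.30, adjusted p = 0.00493). Among the 8 genes, only Lbp had a higher fitted level with hWJ-MSCs than with PBS, by an amount that did not pass the test.

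Ly96 encodes MD-2, the LPS-binding partner of TLR4. It is listed by transcript ENSMUST00000191260 (chromosome 1 from 16688051 to 16691947, plus strand), which has 3 exons and is 1 of 3 transcripts of a gene that extends to 16709611 in GENCODE M21, and the same limit holds as for Lbp. Its scores were 36, 51, 58 and 36 in control mice, 118, 60, 84 and 102 in Con A + PBS mice, and 70, 46, 52 and 54 in Con A + hWJ-MSCs mice. Each Con A + PBS mouse lay above the control mice, but mouse 2 only just, with 60 against 58. The rise after Con A was 0.98 on the log2 scale (SE 0.24, interval 0.45 to 1.51, limma adjusted p = 0.00467). With hWJ-MSCs the fitted difference from Con A + PBS was -0.68 (SE 0.24, interval -1.21 to -0.15, adjusted p = 0.0763), which did not pass the test, and without Con A + PBS mouse 2 it was -0.86 and passed (adjusted p = 0.0309). The Con A + hWJ-MSCs mice overlapped with the control mice, with a difference of 0.30 (interval -0.23 to 0.83, adjusted p = 0.345). The scores of Ly96 were close to the limit of 64 below which genes had been left out of the table. Ly96 reached 64 in 3 Con A + PBS mice and 1 Con A + hWJ-MSCs mouse, so the filter also favoured a lower level with hWJ-MSCs.

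Tlr2 encodes a cell surface receptor that recognises bacterial lipoproteins together with TLR1 or TLR6 (transcript ENSMUST00000029623; chromosome 3 from 83836273 to 83841767, minus strand). Its scores were 36, 69, 45 and 70 in control mice, 576, 334, 350 and 454 in Con A + PBS mice, and 166, 110, 190 and 138 in Con A + hWJ-MSCs mice. The 3 groups were fully separated, with the Con A + hWJ-MSCs mice between the other 2 groups. The log2 fold change was 2.96 after Con A (SE 0.25, interval 2.42 to 3.50, limma adjusted p = 2.1e-06) and -1.49 with hWJ-MSCs (SE 0.25, interval -2.03 to -0.95, adjusted p = 0.0174). The Con A + hWJ-MSCs mice stayed above the control mice by 1.47 (SE 0.25, interval 0.92 to 2.01, adjusted p = 6.8e-04). Both calls of Tlr2 against the control group held in all 12 fits without 1 mouse.

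Tlr3 encodes the endosomal receptor for double-stranded RNA (transcript ENSMUST00000034056; chromosome 8 from 45395665 to 45410539, minus strand). It had scores of 182, 139, 178 and 138 in control mice, 436, 342, 436 and 403 in Con A + PBS mice, and 313, 280, 400 and 262 in Con A + hWJ-MSCs mice. All mice given Con A lay above the control mice, and the ranges of the Con A groups overlapped. Tlr3 differed by a log2 fold change of 1.34 after Con A (SE 0.15, interval 1.02 to 1.67, limma adjusted p = 1.8e-05) and 0.97 between the Con A + hWJ-MSCs and control groups (SE 0.15, adjusted p = 3.8e-04). Between the Con A groups the fitted difference was -0.38 (interval -0.70 to -0.05, adjusted p = 0.1), which did not pass the test.

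Tlr13 encodes an endosomal receptor of the mouse that recognises bacterial ribosomal RNA (transcript ENSMUST00000040065; chromosome X from 106143229 to 106160493, plus strand). Its scores were 26, 32, 38 and 40 in control mice, 51, 66, 48 and 60 in Con A + PBS mice, and 64, 32, 54 and 43 in Con A + hWJ-MSCs mice. The Con A + PBS mice lay above the control mice, and the Con A + hWJ-MSCs mice overlapped with both groups. The log2 fold change after Con A was 0.72 (SE 0.25, interval 0.18 to 1.25, limma adjusted p = 0.0261), and it was no longer called without control mouse 1 or 2 or without Con A + PBS mouse 2 or 4 (adjusted p up to 0.0712). The differences of the Con A + hWJ-MSCs group were -0.25 from Con A + PBS (interval -0.79 to 0.29) and 0.47 from control (interval -0.07 to 1.00), and neither passed the test (adjusted p = 0.494 and 0.152). Tlr13 passed the limit of 64 in 2 mice, 1 in each Con A group.

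Among the adaptors, Myd88 encodes the adaptor shared by most TLRs and by the interleukin-1 receptors (transcript ENSMUST00000035092; chromosome 9 from 119335934 to 119340041, minus strand). Its scores were 306, 308, 342 and 350 in control mice, 782, 622, 758 and 733 in Con A + PBS mice, and 608, 489, 570 and 560 in Con A + hWJ-MSCs mice, 3 groups without overlap. Myd88 rose by 1.14 on the log2 scale after Con A (SE 0.10, interval 0.92 to 1.37, limma adjusted p = 3.7e-06). With hWJ-MSCs it was -0.38 (SE 0.10, interval -0.60 to -0.15, adjusted p = 0.0385), which passed the p threshold but not the fold threshold, so Myd88 was not called there. The difference between the Con A + hWJ-MSCs and control groups was 0.77 (SE 0.10, adjusted p = 1.4e-04). Myd88 varied little within groups, with an SD of 6.97% to 9.77% of the mean.

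Ticam1 encodes TRIF, the adaptor of TLR3 and of the endosomal arm of TLR4 (transcript ENSMUST00000058136; chromosome 17 from 56269319 to 56276786, minus strand). Its scores were 228, 231, 286 and 313 in control mice, 320, 361, 386 and 354 in Con A + PBS mice, and 316, 310, 303 and 352 in Con A + hWJ-MSCs mice. The Con A + PBS mice lay just above the control mice, with 320 as their lowest against 313 as the highest control score. Its log2 fold change after Con A was 0.43 (SE 0.12, interval 0.18 to 0.69, limma adjusted p = 0.00757), under the fold threshold. It was -0.15 with hWJ-MSCs (interval -0.40 to 0.11, adjusted p = 0.390) and 0.29 between the Con A + hWJ-MSCs and control groups (interval 0.03 to 0.54, adjusted p = 0.0701).

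The stretches just upstream of the adaptor genes are shown because Myd88 was called up after Con A and Ticam1 was not. The test of this difference gave the smallest p it allows, which did not pass after adjustment (given with the ratios of the genes). They were taken from RefSeq promoter windows (GRCm38.p6), which matched 5 of the 8 genes (Tlr2, Tlr3, Tlr13, Myd88 and Ticam1), and trimmed to the bases that hold no exon in GENCODE M21. The Myd88 stretch lies in an intron of a longer Myd88 transcript. Both are on the minus strand and written 5′ to 3′, with a match to the interferon-stimulated response element in capitals.
Myd88, chr9:119340042-119340268: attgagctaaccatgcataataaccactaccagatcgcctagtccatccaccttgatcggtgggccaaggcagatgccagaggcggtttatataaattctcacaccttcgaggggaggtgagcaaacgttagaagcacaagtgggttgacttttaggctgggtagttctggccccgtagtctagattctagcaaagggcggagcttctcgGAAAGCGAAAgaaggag
Ticam1, chr17:56276787-56277017: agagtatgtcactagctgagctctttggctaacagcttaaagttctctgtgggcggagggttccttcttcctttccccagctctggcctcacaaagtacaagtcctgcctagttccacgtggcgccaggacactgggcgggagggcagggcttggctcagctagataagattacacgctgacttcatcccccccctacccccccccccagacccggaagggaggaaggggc
Windows of 300 bases, from 250 before to 50 after the RefSeq start, were searched on both strands for the response element core (2 copies of GAAA spaced by 2 bases), the AP-1 site TGANTCA and the NF-κB consensus. The Myd88 window held 1 match to the response element core, beginning 40 bases before the start, and 3.44% of the 32851 windows searched hold one. The Ticam1 and Tlr13 windows held no match to any of the 3 motifs. The Tlr2 and Tlr3 windows held matches to the NF-κB consensus, as do 8.46% of the windows searched, and these are shown in capitals within 30 bases. Unlike the adaptor stretches, these windows were not trimmed and overlap exons in GENCODE M21.
Tlr2, chr3:83841762-83841791: taggacacctGGGGAATTCCcacacggagc
Tlr2, chr3:83841597-83841626: ccctgacctgGGGACATCCCcttccctcac
Tlr3, chr8:45410572-45410601: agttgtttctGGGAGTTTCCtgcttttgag
The first Tlr2 match overlaps with another match shifted by 1 base and is 1 place in the sequence. The AP-1 site is in 7.81% of the windows searched and in none of these 5. A match describes letters in the window and was not tested for binding.

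The size of change was compared between partners through the log2 ratio of their scores within each mouse, by two-sided exact permutation tests of 4 mice against 4, which cannot give a p below 0.0286. The planned pairs with Tlr4 could not be computed, and the 3 remaining planned pairs in 3 comparisons gave 9 tests. None of the 9 passed an adjusted p of 0.05, while 5 had the smallest p that the test allows. For these 5 the adjusted p was set by how many tests reached that value, so it says little about a single pair. The Lbp to Cd14 ratio was 5.62 ± 0.56 in control and 0.16 ± 0.79 in Con A + PBS mice (SD, n = 4), without overlap (exact permutation p = 0.0286, adjusted p = 0.0514). With hWJ-MSCs it was 1.85 ± 0.75, above all Con A + PBS mice (exact permutation p = 0.0286, adjusted p = 0.0514). Cd14 is in the table only through mice given Con A, so the filter favoured the direction of this ratio against control. The Ticam1 to Myd88 ratio was -0.31 ± 0.13 in control and -1.02 ± 0.21 in Con A + PBS mice, without overlap (exact permutation p = 0.0286, adjusted p = 0.0514). With hWJ-MSCs this ratio was -0.79 ± 0.15, and the Con A groups overlapped (exact permutation p = 0.143, adjusted p = 0.161). The Tlr3 to Tlr13 ratio differed by 0.63 after Con A, with overlap (exact permutation p = 0.0857, adjusted p = 0.129), and Tlr13 too is in the table only through mice given Con A.

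The pairs Cd14 to Ly96 and Tlr2 to Cd14 were chosen after the data were seen and are described without a test. The planned pairs, too, were set with earlier results of these data known. The control mice had a Cd14 to Ly96 ratio of 0.32 ± 0.32, against 5.71 ± 0.24 after Con A with PBS and 5.05 ± 0.53 with hWJ-MSCs, and both genes could enter the table only through mice given Con A. For Tlr2 to Cd14 the ratio was -0.06 ± 0.52 in the control mice, against -3.48 ± 0.17 after Con A with PBS and -3.64 ± 0.49 with hWJ-MSCs, and the ratios of the Con A groups overlapped.

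**Figure D3:**
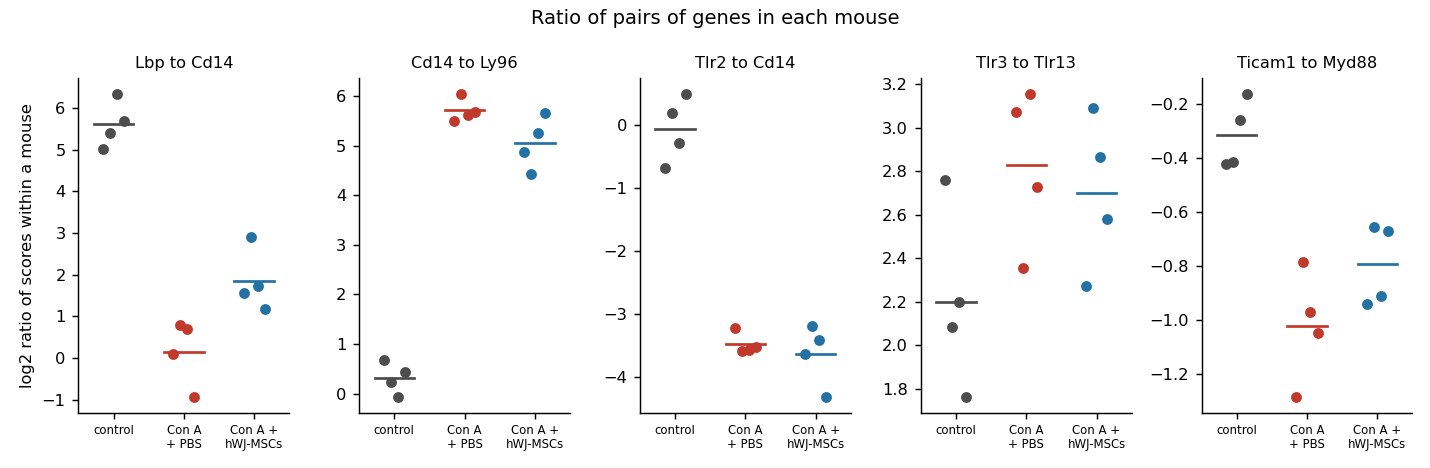
Log2 ratio of the scores of 2 genes within a mouse, 1 point per mouse, with the group mean as a line. The Cd14 to Ly96 ratio lay between -0.08 and 0.67 in control mice and between 4.43 and 6.05 in all mice given Con A, while the Tlr3 to Tlr13 ratios of the 3 groups overlapped.

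Cell type markers changed as well, some up and others down. After Con A, 9 of the 9 Kupffer cell markers in the table were called down by limma, where 19.2% of all genes were called down and 19.5% up, and these shares stand behind the other marker counts after Con A as well. Of the 9, Vsig4, Timd4, Cd163 and Folr2 would not have met the entry limit of 64 in 2 mice without the control mice. The summed score of the 9 fell from a range of 5332 to 8060 to a range of 721 to 1429. It was 564 to 1828 with hWJ-MSCs, where 9 of 9 were again called down against control, as were 13.1% of all genes. The Kupffer cell gene Clec4f went from scores of 1282 to 1646 in control mice to 43 to 76 in Con A + PBS and 25 to 104 in Con A + hWJ-MSCs mice. Of the 8 neutrophil markers, 8 were called up after Con A, but none of the 8 would have met the entry limit on the control mice alone, so the filter favoured this direction. Their summed score was 73 to 163 in control, 1268 to 2166 in Con A + PBS and 885 to 1875 in Con A + hWJ-MSCs mice. The markers Mmp8, Retnlg and Ngp were listed at 0 in at least 1 control mouse. Of the 8 monocyte and recruited macrophage markers, 7 were called up and Lyz2 was called down, with Ly6c2 meeting the entry limit only with the mice given Con A. Without Fn1, which hepatocytes also make, the summed score of these markers was 1136 to 1424, 2093 to 2427 and 1845 to 3029 in the 3 groups.

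Of the 7 sinusoidal endothelial markers, 6 were called down and Lyve1 was called up after Con A, with Clec4g and Oit3 meeting the entry limit only with the control mice, and with a summed score of 3073 to 4421 in control, 1273 to 1754 in Con A + PBS and 1715 to 2235 in Con A + hWJ-MSCs mice. The T and NK cell genes in the table, 4 of the 10 listed, were all called up, and none of the 4 met the entry limit on the control mice alone. Of the other lists, 4 of 6 stellate cell markers were called down, with Colec11 meeting the entry limit only with the control mice, and Ighm, the 1 B cell marker in the table, was called down. The hepatocyte markers had summed scores of 993760 to 1196622 in control mice, 999273 to 1080557 in Con A + PBS mice and 1085135 to 1114711 in Con A + hWJ-MSCs mice, and of the 8 markers 3 were called down and 1, Fgb, was called up after Con A. Between the Con A groups none of the Kupffer cell, neutrophil, monocyte, T and NK cell or hepatocyte markers was called by limma, while the endothelial marker Stab2 and the stellate cell marker Colec11 were called up and Lyve1 down with hWJ-MSCs. Over all genes 4.20% were called up and 4.38% down there, so a lack of calls in short lists says little about the cell types. The part of the marker shifts in the changes of Cd14, Tlr2 and the other genes was not tested, and in bulk liver fewer cells of a type and less RNA per cell cannot be told apart.

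**Figure D4:**
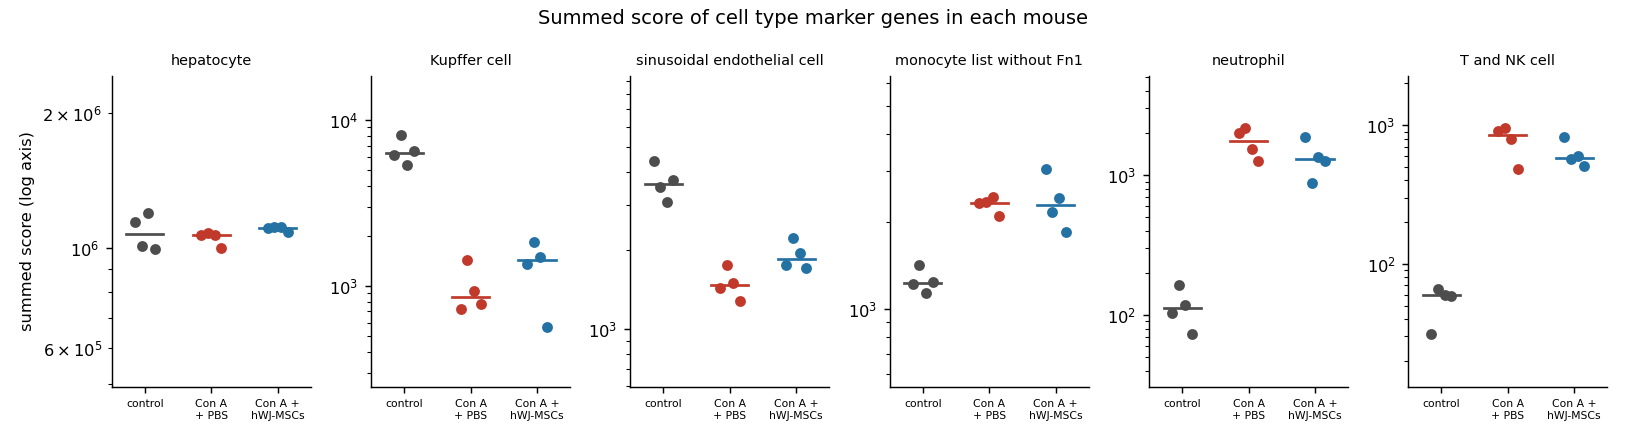
Summed score (log axis) of the marker genes of 6 cell types in each mouse, 1 point per mouse, with the group median as a line. The Kupffer cell sum reached at most 1828 in mice given Con A and was at least 5332 in control mice, while the neutrophil and the T and NK cell sums were higher in the mice given Con A.

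The other genes of the pathway were taken from 6 lists with 98 genes, of which 79 were in the table. These lists, too, were chosen with earlier results of these data known. After Con A, compared with control, 37 of the 79 were called up and 7 down, where 19.5% and 19.2% of all genes were called, with a median log2 fold change of 0.56 against 0.05 over all genes. Between the Con A groups, 18 of the 79 were called down with hWJ-MSCs and 2 up, with a median of -0.23 against 0.00 and backgrounds of 4.38% and 4.20% of all genes. The number called down was 1 without Con A + PBS mouse 1, 5 without Con A + PBS mouse 4, and 1 without Con A + hWJ-MSCs mouse 2 or mouse 3. Among the genes of the lists named below as called down with hWJ-MSCs, Tnfaip3 kept its call in all 12 fits without 1 mouse, Socs1 and Cxcl10 in 9, Nos2 and Cxcl2 in 8, Atf3 in 7, Irf5 in 6, Ptgs2 in 5 and Dusp1 in 3. Atf3 and Dusp1 also lost this call with only the 8 mice compared.

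Of 10 listed receptors and partners, Tlr5, Tlr12 and Ly86 were in the table, and all 3 were called down after Con A, as were 19.2% of all genes. Tlr5 reached the limit of 64 in the 4 control mice and in 1 mouse given Con A, so it met the entry limit only with the control mice. Ly86 encodes MD-1, the MD-2 relative that pairs with CD180, and had scores of 77 to 98 in control, 30 to 46 in Con A + PBS and 39 to 74 in Con A + hWJ-MSCs mice. Its log2 fold change was -1.30 after Con A (limma adjusted p = 3.9e-04) and 0.76 with hWJ-MSCs (adjusted p = 0.0457). Ly86 kept this latter call in 3 of the 12 fits without 1 mouse, and lost it with only the 8 mice compared. Tlr5, the flagellin receptor, changed by -0.82 after Con A (limma adjusted p = 0.0163), with scores of 86 to 104 in control and 40 to 80 in Con A + PBS mice. It remained below control in the Con A + hWJ-MSCs mice, at 31 to 56 (log2 fold change -1.14, adjusted p = 0.00399). Tlr12, which recognises profilin of protozoan parasites, changed by -0.59 after Con A (adjusted p = 0.0162) and by 0.24 with hWJ-MSCs (adjusted p = 0.375), and its call after Con A was lost in 4 of the 12 fits, those without control mouse 2 or 4 or Con A + PBS mouse 1 or 4. Tlr5 lost its call after Con A without Con A + PBS mouse 1.

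Of the chaperones and trafficking factors that TLRs need to reach their compartment, 3 of 8 were called up after Con A and 5 were not called, where 19.5% of all genes were called up. The median of the list was 0.26, against 0.05 over all genes. Hsp90b1, the endoplasmic reticulum chaperone gp96 that folds TLRs and many other clients, rose by 1.96 on the log2 scale (limma adjusted p = 6.9e-05), from scores of 8202 to 13142 to scores of 34256 to 44292. Lrrc59 and Tmed7, which take part in TLR transport, rose by 1.52 and 0.87 (adjusted p = 3.7e-04 and 1.8e-04). With hWJ-MSCs the differences from Con A + PBS were -0.69, -0.65 and -0.13 for Hsp90b1, Lrrc59 and Tmed7, and none passed the test (adjusted p = 0.0915, 0.1 and 0.527).

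Of the genes for LPS binding and clearance, 4 of 10 were called up after Con A, 2 down and 4 were not called, where 19.5% of all genes were called up and 19.2% down. Alpl, the tissue-nonspecific alkaline phosphatase that can dephosphorylate LPS, rose from scores of 84 to 126 to scores of 360 to 465 (log2 fold change 1.98, limma adjusted p = 6.4e-07). Itgam, a subunit of complement receptor 3 on myeloid cells and one of the monocyte markers above, rose by 1.57 (adjusted p = 1.2e-04). Pltp, the phospholipid transfer protein that moves LPS to lipoproteins, fell from 1331 to 2224 to scores of 270 to 534 (log2 fold change -2.33, adjusted p = 1.1e-05). Between the Con A groups the values were 0.06 for Alpl, -0.08 for Itgam and 0.57 for Pltp. None of the 10 genes was called there, where 4.20% of all genes were called up and 4.38% down, so this count says little about the list.

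Of the adaptors, kinases and transcription factors downstream, 7 of 26 were called up after Con A and 19 were not called, with a median of 0.29, where 19.5% of all genes were called up. This share is near that of the list, so the counts say little about the list. The largest changes among the called genes were in Irf7, Ikbke and Tbk1. Irf7, the interferon regulatory factor that amplifies type I interferon, had scores of 817 to 1165 in control, 4181 to 6736 in Con A + PBS and 4548 to 6516 in Con A + hWJ-MSCs mice. It rose by 2.54 (limma adjusted p = 3.8e-07) and differed by -0.05 between the Con A groups (interval -0.42 to 0.31, adjusted p = 0.845). Ikbke and Tbk1, the kinases that phosphorylate IRF3 and IRF7, rose by 1.25 and 0.85 (adjusted p = 1.1e-05 and 5.8e-05). Irf5, which acts with MyD88 in inducing inflammatory cytokines, was the 1 gene of the 26 called down with hWJ-MSCs. Of all genes 4.38% were called down there, a share near that of the list. The scores of Irf5 were 184 to 325 in control, 222 to 286 in Con A + PBS and 112 to 182 in Con A + hWJ-MSCs mice. Irf5 changed by -0.07 after Con A (adjusted p = 0.757), by -0.70 with hWJ-MSCs (adjusted p = 0.0361) and by -0.77 between the Con A + hWJ-MSCs and control groups (adjusted p = 0.0061).

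Of the negative regulators of TLR signaling, 7 of 16 were called up after Con A and 2 down, and 7 were called down with hWJ-MSCs and 1 up. The shares over all genes were 19.5% up and 19.2% down after Con A, and 4.38% down and 4.20% up with hWJ-MSCs. Of the 16, Irak3, Tnfaip3, Socs1 and Atf3 would not have met the entry limit on the control mice alone. Socs1, an inhibitor of JAK kinases that also restrains TLR signaling, rose from 7 to 19 to scores of 396 to 735 and was 149 to 272 with hWJ-MSCs (log2 fold changes 5.46 and -1.44, limma adjusted p = 1.0e-07 and 0.0224). Tnfaip3, which encodes the deubiquitinating enzyme A20, had scores of 44 to 75 in control, 406 to 1026 in Con A + PBS and 109 to 206 in Con A + hWJ-MSCs mice. It changed by 3.65 after Con A and by -2.18 with hWJ-MSCs (adjusted p = 1.1e-06 and 0.00985). Atf3, a stress-induced transcriptional repressor, changed by 5.15 and -2.64 (adjusted p = 5.6e-05 and 0.0321), with a wide spread of 372 to 3488 in the Con A + PBS group. Dusp1, the MAP kinase phosphatase, changed by 0.34 after Con A (adjusted p = 0.565) and by -1.68 with hWJ-MSCs (adjusted p = 0.0424), and its Con A + hWJ-MSCs scores of 192 to 234 lay below all control scores, 308 to 859.

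Of the target genes of TLR4 signaling, which interferon and cytokine receptors induce as well, 16 of 16 were called up after Con A and 10 were called down with hWJ-MSCs, where 19.5% and 4.38% of all genes were called. The medians were 5.26 and -1.15, against 0.05 and 0.00 over all genes, and 6 of the 16 would not have met the entry limit on the control mice alone. Saa3, an acute phase serum amyloid A, went from scores of 35 to 58 to scores of 20871 to 72724 (log2 fold change 10.09, limma adjusted p = 4.9e-09), and differed by -0.12 between the Con A groups (adjusted p = 0.854). Ptgs2, which encodes cyclooxygenase-2, was listed at 0 in all 4 control mice, at 221, 191, 164 and 282 in Con A + PBS mice and at 119, 73, 114 and 92 in Con A + hWJ-MSCs mice. It fell by 1.10 on the log2 scale with hWJ-MSCs (adjusted p = 0.0334). Nos2, the inducible nitric oxide synthase, was listed at 0, 0, 6 and 0 in control mice, and at 198 to 550 in Con A + PBS and 22 to 92 in Con A + hWJ-MSCs mice (log2 fold change with hWJ-MSCs -2.59, adjusted p = 0.0324). The chemokines Cxcl2 and Cxcl10 changed by 5.24 and 5.54 after Con A (adjusted p = 1.9e-05 and 4.3e-06). They changed by -2.83 and -2.47 with hWJ-MSCs (adjusted p = 0.0225 and 0.0224). Cxcl2 had scores of 92 to 436 in Con A + PBS and 9 to 38 in Con A + hWJ-MSCs mice. It reached the limit of 64 only in the 4 Con A + PBS mice, so the filter favoured both its rise and its fall.

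**Figure D5:**
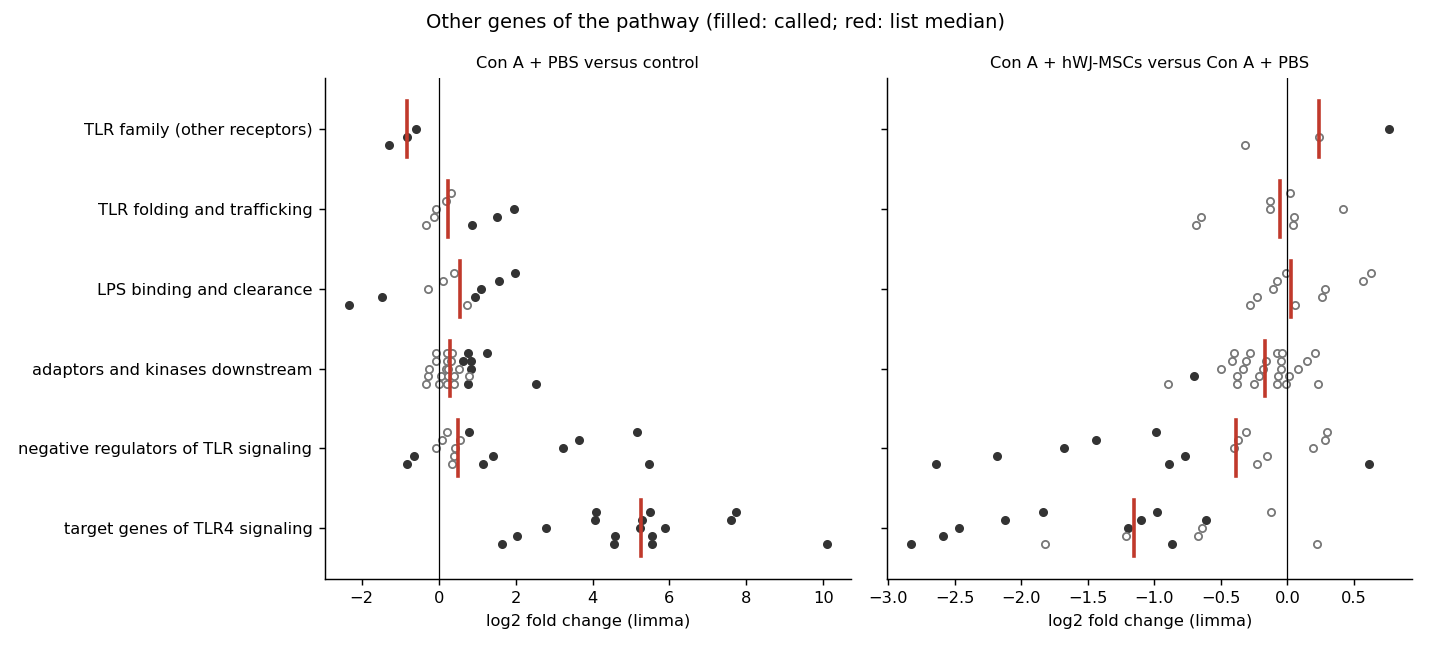
Log2 fold change of 79 other genes of the pathway in 6 lists, 1 point per gene, filled where called, with the list median in red, for the effect of Con A against control (left) and the difference between the Con A groups, hWJ-MSCs against PBS (right). The target genes lay farthest to the right after Con A, with a median of 5.26, and farthest to the left with hWJ-MSCs, with a median of -1.15. The panels have different horizontal scales.

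For each of the 8 genes, the genes most alike were those with the highest Pearson correlation of log2(score + 1) over the 12 mice, which follow 3 groups and are given as a description. For Cd14 they were Fkbp1a (0.995), Il1rn (0.994) and Ptgs2 (0.993), and for Tlr2 they were G3bp2 (0.987), Pfkl (0.987) and Tpm3 (0.985). Tlr3 was most like Dhx58 (0.989), Ifi35 (0.985) and Ddx60 (0.981), and Myd88 was most like Wars (0.989), Adar (0.989) and Nras (0.988). The correlations were lower for the genes of small change: 0.957 for Lbp with Itfg1, 0.946 for Ticam1 with Aqr, 0.944 for Ly96 with Fchsd1 and 0.936 for Tlr13 with Eif3f.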

How the data were processed

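Poly-A selected libraries from the livers of 12 mice were read as 150-bp pairs. The authors deposited 1 score for each of 11289 genes in each mouse, a whole number normalized between mice, although the table is named for counts. The normalization is not given in the sources used here. Equal sorted values show that the distributions had been made alike, which hides any shift shared by all genes. The submitters' processing notes name mm10, Bowtie2 2.2.1 and RSEM 1.2.18, without role or order. Depth is unknown, so no counting error is given. Groups came from the sample titles, and all value columns were used.

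The log2(score + 1) values of all 12 mice entered 1 limma model (version 3.58.1, R 4.3.3, trended eBayes) with the 3 groups and no covariates. The study's methods name a test for raw counts, at a p below 0.05, not stated to be adjusted, and a fold change above 1.5. The values are not counts, so it was not run. The fit was tested on simulated data. Exact permutation tests used scipy 1.17.1. Benjamini-Hochberg adjustment of exact tests over the 8 genes was planned and is not given, as the genes were chosen by name with earlier results of these data known, like the lists, pairs and rules. Genes named from the lists were the 3 called genes of largest change in each of the first 2 comparisons, and those most alike were the 3 of highest correlation. The mice that share a number in the labels are different animals. Results were recomputed with each mouse left out, the mouse number as a block, a pseudocount of 10, genes of mean score 100 or more only, centring on the median, untrended or robust eBayes, the 8 mice of a comparison only, p unadjusted, and a 2-fold threshold.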

Additional observations from a re-analysis of the deposited data

Results flagged for a closer look

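In 4 of 90 groups of 4 mice, tested over 30 genes by Dixon's criterion on log2 scores, 1 mouse lay far from the others of its group, and chance flags about 1 in 20 groups. None of these was in Lbp, Cd14, Ly96, Tlr2, Tlr3, Tlr13, Myd88 or Ticam1. Hsp90b1 was 34256 in Con A + PBS mouse 2 and 44292 in the other 3 mice. Saa3 was 20871 in Con A + PBS mouse 4 against 72724 in the other 3 mice, and 29668 in Con A + hWJ-MSCs mouse 4 against 58110 in the other 3 mice. Nos2 was 6 in control mouse 3 and listed at 0 in the other 3 mice. In each of these groups the other 3 mice had tied scores, since high scores in the table come in few steps and the lowest are 0.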

How the results depend on the processing

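No fold change of the 8 genes reversed under any alternative. With a fold change above 2 required, 4 genes were called up after Con A and 3 in Con A + hWJ-MSCs versus control, and of the pathway list genes 3 were called down after Con A, 11 down and 0 up with hWJ-MSCs, and 3 down in Con A + hWJ-MSCs versus control. The shares over all genes at this threshold are not given, so these counts are a description. Pathway list genes called up with hWJ-MSCs numbered 1 with a mean score of at least 100, 1 without a trend and 0 with only the 8 mice compared.

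Leaving out 1 mouse, the 8 genes called up after Con A numbered 5 to 7, those called down with hWJ-MSCs 0 to 3, and those called up against control with hWJ-MSCs 5 to 6. In these fits, 18.3% to 20.4% of all genes were called up after Con A and 0.0177% to 6.46% down with hWJ-MSCs. Against control with hWJ-MSCs, 12.1% to 14.9% of all genes were called up. Pathway list genes called up and down numbered 36 to 38 and 3 to 7 after Con A (3 without Con A + PBS mouse 1), 0 to 2 and 1 to 19 with hWJ-MSCs, and 30 to 32 and 3 to 5 against control with hWJ-MSCs (3 without control mouse 4 or Con A + hWJ-MSCs mouse 3). Genes without overlap numbered 7 to 8, 3 to 5 (5 without Con A + PBS mouse 2) and 5 to 6 in the 3 comparisons, and planned pairs without overlap 2 to 3, 1 to 2 (2 without Con A + PBS mouse 2) and 2 to 3. The share of all genes without overlap was computed only for 4 mice against 4, so these counts are a description. With the added pairs the counts without overlap were 4 and 4 in the comparisons with control. Why these calls moved was not tested.

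Correlations of deviations between same-numbered mice were -0.12 to 0.37, so the number is not treated as a pairing. With the number as a block no count of called genes among the 8 moved. Differences within same-numbered mice had 1 direction in 6 genes and 2 planned pairs between the Con A groups. Scores near 64 (Ly96, Tlr13) limit what can be read from small changes.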
